A study of Mus musculus with 4 samples.

Results

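The noncoding snoRNA host genes were examined for Myc and Max binding in mouse embryonic stem cells (ESCs). The 8 listed genes were Gas5, Snhg1, Snhg3, Snhg5, Snhg6, Snhg7, Snhg8 and Snhg12. Those present in the mm9 GENCODE M1 annotation were taken, which left 6 of the 8, among 37310 annotated genes. Snhg6 and Snhg8 were found there neither by symbol nor by a RefSeq synonym. Each annotated gene was described by its peaks within 1 kb of any transcription start site (TSS), their score and rank, and the E-Boxes under them.

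The series holds 4 ChIP-Seq samples of mouse E14 ESCs, and the peak lists of 2 of them, Bio-Myc and Max, were analysed. Bio-Myc is Myc with a biotin tag at its N-terminus, expressed from the EF1α promoter in a stable clone of E14 cells that also make the biotin ligase BirA, and it was pulled down with streptavidin beads. Max was precipitated with an anti-Max antibody from parental wild type E14 cells. The controls were a streptavidin ChIP, from parental wild type cells by the labels and from BirA cells lacking a tagged protein by the methods, and an IgG ChIP from parental wild type cells. The Bio-Myc cells were thus 1 clone and carried tagged Myc beside their own, and the Max cells did not. Each ChIP was 1 library, so no value below has a replicate error and no difference was tested. The lists give no read counts, and the depth behind a peak is unknown.

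Small nucleolar RNAs (snoRNAs) guide the modification of ribosomal RNA. Box C/D snoRNAs guide 2′-O-methylation and box H/ACA snoRNAs guide pseudouridylation, and most are cut from the introns of a host transcript. In the noncoding hosts the introns carry the functional RNAs, while the spliced exons have no known protein product and, as for Gas5, are often degraded during translation. Myc is a transcription factor that binds DNA as a dimer with Max, above all at the E-Box CACGTG, and genes for ribosome production are among its best known targets.

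By the annotation, the 6 genes held 27 snoRNA genes. Gas5, a transcript that accumulates when growth stops, held 9 box C/D snoRNAs. Snhg1, known as the host of the U22 snoRNA, held 8 of that class, and Snhg5, the host of U50, held 2 copies annotated as SNORD50. Snhg3 held the H/ACA snoRNAs Snora73a and Snora73b, copies of U17, which is needed for cleavage of the ribosomal RNA precursor. Snhg7 held the H/ACA snoRNAs Snora43 and Snora17. Snhg12 held Snora16a, Snora44 and Snora61 together with the C/D snoRNA Snord99.

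The starts of these genes are shown first, since every peak described below lay over them. The sequences are from RefSeq (GRCm38.p6) and were placed in mm9 by exact match. Each runs 5′ to 3′ on the strand of the gene, from 60 bases before the RefSeq start to 50 bases from the start on, and capitals mark the letters TATA. Snhg8 is shown because its start could be placed although mm9 GENCODE M1 does not list it. No promoter sequence of Snhg6 is shown.
Gas5, chr1:162965237-162965346, plus strand: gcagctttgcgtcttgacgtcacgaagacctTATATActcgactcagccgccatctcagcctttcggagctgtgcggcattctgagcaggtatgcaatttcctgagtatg
Snhg1, chr19:8797917-8798026, plus strand: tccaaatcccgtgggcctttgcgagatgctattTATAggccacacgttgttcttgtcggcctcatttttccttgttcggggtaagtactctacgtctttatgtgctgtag
Snhg5, chr9:88417686-88417795, minus strand: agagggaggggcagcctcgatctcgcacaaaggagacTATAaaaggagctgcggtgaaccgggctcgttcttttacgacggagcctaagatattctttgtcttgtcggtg
Snhg3, chr4:131909552-131909661, minus strand: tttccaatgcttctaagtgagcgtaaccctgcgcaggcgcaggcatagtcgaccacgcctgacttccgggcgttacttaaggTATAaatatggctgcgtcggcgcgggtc
Snhg7, chr2:26495715-26495824, minus strand: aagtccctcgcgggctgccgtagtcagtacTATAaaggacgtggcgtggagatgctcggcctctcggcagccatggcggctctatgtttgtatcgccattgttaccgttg
Snhg12, chr4:131864533-131864642, plus strand: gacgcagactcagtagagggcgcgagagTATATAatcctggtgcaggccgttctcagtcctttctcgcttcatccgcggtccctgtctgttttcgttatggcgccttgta
Snhg8, chr3:123211205-123211314, minus strand: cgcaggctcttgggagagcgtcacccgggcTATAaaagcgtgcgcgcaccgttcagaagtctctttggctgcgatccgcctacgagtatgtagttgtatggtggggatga

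The letters TATA occurred in all 7 of these windows, on the gene's strand, and in 15.0% of the 32851 RefSeq promoters over the same stretch. They began 23 to 32 bases before the RefSeq start in Gas5, Snhg1, Snhg5, Snhg7, Snhg8 and Snhg12. For Gas5, which has several RefSeq starts, the most downstream was used. The RefSeq starts of Snhg1 and Snhg5 were at −9 and −14 bases from their only annotated TSS, so TATA lay further from that TSS. In Snhg3 they began 22 bases after the RefSeq start and 31 bases before another annotated TSS, at 131909548. A match to 4 letters is a description of the sequence and not evidence of a TATA box in use, and this motif was chosen after the sequences had been seen. A C followed by 4 pyrimidines, the letters of a terminal oligopyrimidine start such as ribosomal protein genes use, lay between 20 bases before and 25 bases after the start in 6 of 7, Snhg1 being the exception, against 49.4% of all promoters. These letters lay exactly at an annotated TSS in 3 of the 6 annotated genes, Gas5, Snhg3 and Snhg7, and in 4.41% of all genes. Gas5 has 20 annotated TSSs and so more chances of such a match than a gene with a single start. Only the match at a TSS had been planned, and the wider window was an addition. In that window the C of Snhg5 lay 9 bases after the start. The letters CACGTG were in none of the 7 promoters over the 300 bases from 250 before the start, and in 7.15% of all.

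Bio-Myc was bound within 1 kb of a TSS at all 6 annotated genes, and so was Max. Among all 37310 genes the share was 10.0% for Bio-Myc, 23.7% for Max and 8.64% for both. Among the 3845 lincRNA and processed transcript genes, the biotypes of the 6 genes, it was 7.93%, 18.8% and 6.76%. Every one of the 12 peaks covered at least 1 annotated TSS, and no promoter window held a second peak of the same list. The genes were proposed with results of these data in view, so the count is a description and not a test. When the Max list was reduced to its 3962 highest scores, the length of the Bio-Myc list, 3 of the 6 kept a Max peak, and Snhg1, Snhg3 and Snhg12 did not. Of all genes, 10.6% had a Max peak in the reduced list and 5.73% had one beside a Bio-Myc peak. At a p-value limit of 1e-15 in both lists, 5 of the 6 had both peaks, all but Gas5, and 4.07% of all genes did.

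The scores of the 6 genes spanned a wide range. MACS scores a peak by 10 times the −log10 of its p-value, and the lowest scores in the lists are 80 for Bio-Myc and 80.02 for Max. The median Bio-Myc score of the 6 was 196, beside 145 for all genes with a Bio-Myc peak. Their median Max score was 215, beside 197. The scores are ordered below by the class of snoRNA that each gene hosts.

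Among the C/D hosts, Snhg1 and Snhg5 had the highest Bio-Myc scores of the 6 genes and Gas5 the lowest. Snhg1 (ENSMUSG00000090867.1, chr19:8797986-8800932, plus strand) had a Bio-Myc peak at chr19:8797301-8798516 with a score of 584, which ranked 92 of 3962. Its Max peak, at chr19:8797486-8798321, scored 176 and ranked 5164 of 11570. Snhg1 thus stood in the top 2.32% of the Bio-Myc list but at 44.6% of the Max list, counted from the top.

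Snhg5 (ENSMUSG00000032424.7, chr9:88415894-88417721, minus strand) was high in both lists. Its Bio-Myc peak at chr9:88416919-88418356 scored 489 and ranked 141. The Max peak at chr9:88417058-88418312 scored 404 and ranked 1425, the highest Max score of the 6 genes.

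Gas5 (ENSMUSG00000053332.7, chr1:162964553-162968670, plus strand) had the widest Bio-Myc peak of the 6, 2817 bp at chr1:162964392-162967208, with a score of 117 and a rank of 2298. The Max peak, 1058 bp at chr1:162965002-162966059, scored 244 and ranked 3362. The Bio-Myc peak covered 15 of the 20 annotated TSSs of Gas5 and the Max peak 11. The Max peak did not reach the outermost TSS, at 162964553, from which it was 449 bp away.

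The hosts of H/ACA snoRNAs alone were Snhg3 and Snhg7, too few to describe a class. Snhg3 (ENSMUSG00000085241.1, chr4:131903929-131909601, minus strand) had a Bio-Myc peak at chr4:131909103-131910323 with a score of 199 and a rank of 970. Its Max peak at chr4:131909124-131909896 scored 186 and ranked 4835. Snhg7 (ENSMUSG00000091299.1, chr2:26492697-26495764, minus strand) had a Bio-Myc peak at chr2:26495073-26495962 with a score of 164 and a rank of 1360. Its Max peak at chr2:26495176-26496051 scored 261 and ranked 3038, second to Snhg5 among the 6.

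Snhg12, which hosts both classes (ENSMUSG00000086290.1, chr4:131864593-131866939, plus strand), had a Bio-Myc peak at chr4:131864461-131865526 with a score of 194 and a rank of 1019. The Max peak at chr4:131864413-131865249 had the lowest Max score of the 6, 164, and ranked 5613. Snhg12 and Snhg3 are neighbours on chromosome 4, with outermost TSSs 45008 bp apart. No Bio-Myc peak and 2 Max peaks lay between their promoter peaks.

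Set among the long noncoding genes with a peak, Snhg1 ranked 10 and Snhg5 ranked 15 of 305 by Bio-Myc score. Snhg3, Snhg12 and Snhg7 ranked 91, 100 and 123, and Gas5 ranked 205. By Max score the 6 genes ranked between 136 and 422 of 724, so none was near the top of that list.

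The order of the 6 genes differed between the lists. By Bio-Myc score it was Snhg1, Snhg5, Snhg3, Snhg12, Snhg7 and Gas5, and by Max score Snhg5, Snhg7, Gas5, Snhg3, Snhg1 and Snhg12. With 1 library per ChIP, it cannot be said which neighbours in these orders differ. Snhg3 and Snhg12 were nearly level in the Bio-Myc list, with scores of 199 and 194.

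Scores of separate libraries are not on the same scale, so the ratio of the Bio-Myc to the Max score was read against that of all 3223 genes with both peaks. The median log2 ratio of these genes was −0.73, and the Bio-Myc score was the higher in 20.4% of them. It was the higher in 4 of the 6 noncoding hosts. The log2 ratio was 1.73 for Snhg1, a value that 12 of the 3223 genes reached, Snhg1 among them (0.372%). The neighbouring gene Slc3a2 has the same Bio-Myc peak but another, stronger Max peak, with a score of 460, and so a lower ratio. The log2 ratio was 0.27 for Snhg5, 0.24 for Snhg12 and 0.10 for Snhg3. Snhg7, with −0.67, lay close to the median of all genes, and Gas5, with −1.06, lay below it. Genes that share a peak each count in these figures.

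**Figure D1:**
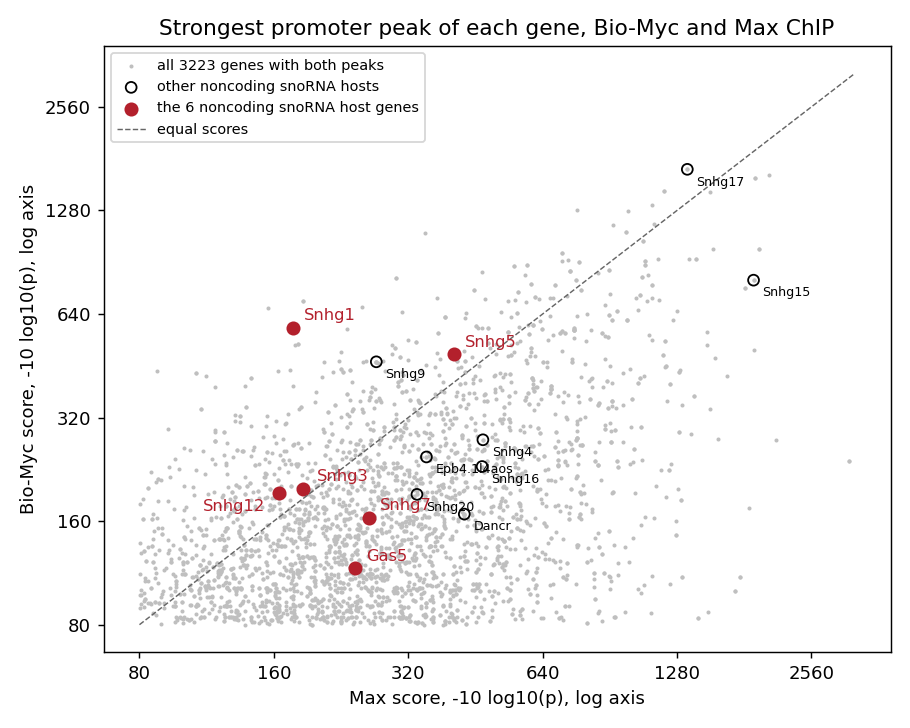
Score of the strongest promoter peak of each gene, 10 times the −log10 of its p-value, in the Max list (horizontal, log axis) and the Bio-Myc list (vertical, log axis). Grey points are the 3223 genes with both peaks, red points the 6 noncoding snoRNA hosts, open circles other noncoding snoRNA hosts, and the dashed line marks equal scores. Snhg1, at 584 and 176, lies far above the line, and Gas5, at 117 and 244, lies below it.

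The genes whose pair of scores was most like that of Snhg1, by the sum of the absolute log2 differences over the 2 lists, were 1810012P15Rik, 1700025E21Rik and Tmem209. The scores of 1810012P15Rik were 519 for Bio-Myc and 178 for Max, a summed difference of 0.19. Both 1700025E21Rik and Tmem209 had scores of 523 and 182, since they share their peaks, and a summed difference of 0.20.

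The peaks of the lists lay over each other at every gene. The Max peak was wholly inside the Bio-Myc peak at Gas5, Snhg1, Snhg3 and Snhg5, and 94.3% and 89.8% of it overlapped at Snhg12 and Snhg7. The Bio-Myc peaks were 890 to 2817 bp wide and the Max peaks 773 to 1255 bp. Relative to the RefSeq start, with upstream distances negative, the Bio-Myc peaks were centred between −112 bp at Snhg3 and 503 bp at Gas5, and the Max peaks between −73.5 bp at Snhg1 and 238 bp at Snhg12. The lists give no summits, so a centre is the middle of the listed interval.

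The snoRNA genes themselves were mostly outside the peaks. Of the 27 snoRNA genes, 7 were touched by a Bio-Myc peak and 2 by a Max peak. At Gas5 the Bio-Myc peak reached the first 5, SNORD74, SNORD75, SNORD24, SNORD44 and SNORD78, and the Max peak reached SNORD74 and SNORD75. At Snhg1 the Bio-Myc peak reached SNORD25, the first of 8, and at Snhg12 it reached Snora16a, the first of 4. None was under a peak at Snhg3, Snhg5 or Snhg7.

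**Figure D2:**
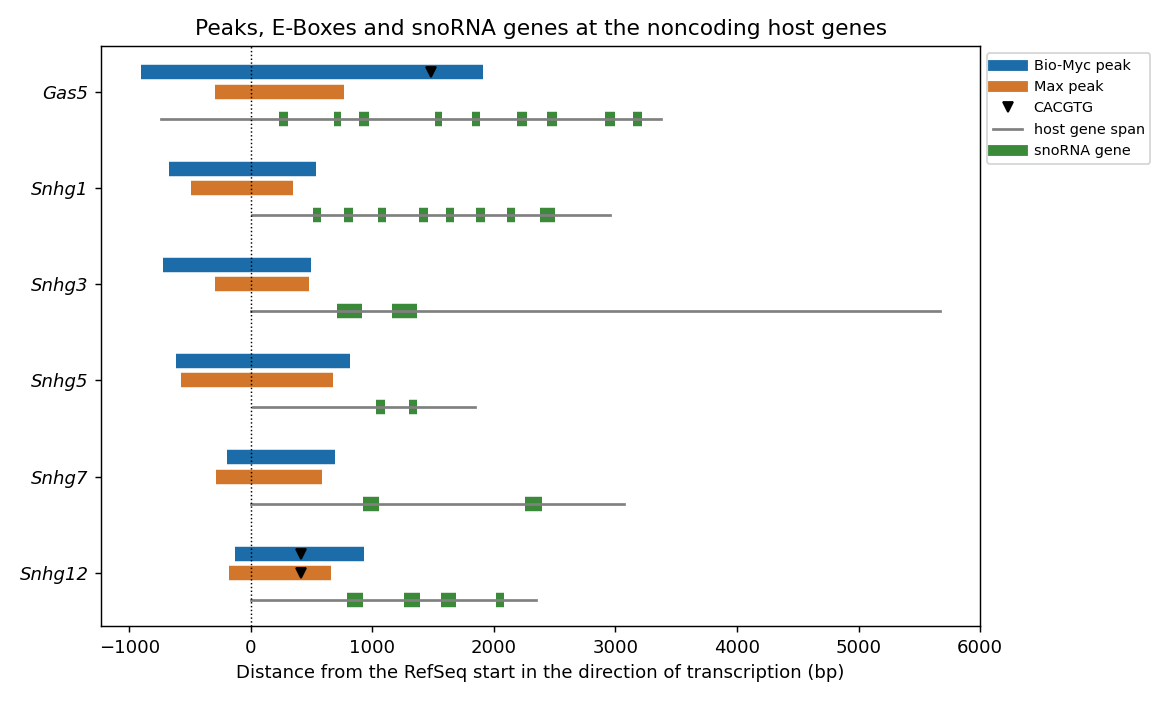
Bio-Myc peaks (blue), Max peaks (orange), CACGTG sites (black triangles, drawn on the peak that holds them) and snoRNA genes (green, on the grey span of the host gene) at the 6 genes, against distance in bp from the RefSeq start in the direction of transcription. Each peak spans the start at 0, and the Bio-Myc peak of Gas5, 2817 bp wide, extends furthest into the gene.

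E-Boxes were looked for under these peaks. The letters CACGTG occurred under the Bio-Myc peak of 2 of the 6 genes, Snhg12 and Gas5, while 49.7% of the 2984 Bio-Myc peaks at promoters held them. Under the Max peaks they occurred in 1 of 6, Snhg12, against 36.7% of 7884. These counts rest on 6 genes only, and their difference from the shares over all promoter peaks was not tested. The motif is a palindrome and so reads the same on both strands. The sites are shown with 12 bases on each side and CACGTG in capitals, read from the mm9 assembly.
Snhg12, chr4:131864994-131865023, plus strand: tttgggtcctacCACGTGctaggcgatcgc
Gas5, chr1:162966768-162966797, plus strand: ccaaatactggcCACGTGttccatcctggt

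The Snhg12 site, 415.5 bp downstream of the start, lay 15 bp from the middle of the Bio-Myc interval and 177.5 bp from the middle of the Max interval. The Gas5 site lay near the end of its wide Bio-Myc peak, 982.5 bp from the centre and 1485.5 bp downstream of the RefSeq start, and was outside the Max peak. Within the central 500 bp of the Bio-Myc peaks, Snhg12 thus held the single E-Box of the 6 genes. Snhg1 and Snhg5, with the highest Bio-Myc scores of the 6, had none.

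A related sequence, CACGCG, was more frequent. It is not a palindrome, so a search of both strands gives it more chances to match than CACGTG. Searched in this way, CACGCG occurred in both peaks of 5 of the 6 genes, all but Snhg12, and in 55.5% of all Bio-Myc and 48.0% of all Max promoter peaks. These counts, too, rest on 6 genes only and were not tested. With either sequence counted, all 6 genes had a site in each list, beside 78.3% and 67.4% of promoter peaks. Snhg5 held 3 such sites and the other 4 genes 1 each. They are shown in the same way, on the strand that reads CACGCG, with CACGCG in capitals, since they were the only sites of either kind under both peaks of Gas5, Snhg1, Snhg3, Snhg5 and Snhg7.
Snhg7, chr2:26495566-26495595, plus strand: ccttccccttacCACGCGgttagcctgctg
Gas5, chr1:162965640-162965669, plus strand: ggaatgcgaagcCACGCGgtgtttctttcg
Snhg5, chr9:88417460-88417489, plus strand: taaaaacctaccCACGCGgggactcaggaa
Snhg5, chr9:88417835-88417864, minus strand: ggcgcgcgctccCACGCGttgcttcatgaa
Snhg5, chr9:88417915-88417944, minus strand: gcaacggagatgCACGCGgcggcgggcggg
Snhg1, chr19:8797587-8797616, plus strand: gagatggatcaaCACGCGgcttagcgtgag
Snhg3, chr4:131909358-131909387, minus strand: atggcgtgaggtCACGCGcctccgagccca

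The Snhg7 site was the nearest to the centres, 63 bp in the Bio-Myc peak and 33 bp in the Max peak. At Gas5 the distances were 145.5 and 124 bp. At Snhg1, the site lay at −375.5 bp from the start, 307 and 302 bp from the centres. At Snhg3 they were 340.5 and 137.5 bp, and at Snhg5 they ran from 163 to 292 bp in the Bio-Myc peak and from 164.5 to 244.5 bp in the Max peak.

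The 6 promoters were rich in CpG. Over the 300 bp from 250 bp upstream of the outermost annotated TSS, the observed over expected CpG ratio was 0.67 for Gas5, 0.86 for Snhg12, 0.89 for Snhg7, 1.02 for Snhg3, 1.09 for Snhg1 and 1.22 for Snhg5, beside a median of 0.35 over 37303 genes. Their GC content was 46% to 61%, beside a median of 50.3%. For Gas5 the outermost TSS lies 744 bp upstream of the RefSeq start used for the sequences and distances above. Its CpG ratio thus describes another stretch than the Gas5 sequence shown, and the Max peak does not reach that TSS. Of the 10409 genes with a CpG ratio at least as high as that of Gas5, 25.8% carried Bio-Myc at the promoter, 56.2% Max and 22.8% both.

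For 3 of the 6 genes another gene started on the opposite strand within 1 kb, as for 14.3% of all genes. Zbtb37, a zinc finger gene, started 80 bp from a TSS of Gas5 and had the same Bio-Myc and Max peaks within 1 kb. The Bio-Myc peak covered a TSS of both genes, while the Max peak covered TSSs of Gas5 and none of Zbtb37. Slc3a2, the heavy chain of amino acid transporters, started 127 bp from Snhg1, and both peaks of Snhg1 also covered a TSS of Slc3a2. The strongest Bio-Myc peak of Slc3a2 was that of Snhg1, while its strongest Max peak was another, with a score of 460. The noncoding 5730588L14Rik started 128 bp from Snhg7 and had the same peaks. On the same strand, the peaks of Snhg3 also covered a TSS of Rcc1, which encodes the exchange factor of the GTPase Ran. A peak that covers TSSs of both genes of a pair cannot be assigned to either from these lists. The peaks of Snhg5 covered no TSS of another gene, and those of Snhg12 none but that annotated for its own snoRNA Snora16a.

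Snhg8 differed from the 6 annotated genes. Its RefSeq start was placed at chr3:123211254 on the minus strand and was covered by a Max peak at chr3:123211001-123211874, with a score of 139 and a rank of 6760. This score was below the Max scores of all 6. No Bio-Myc peak lay within 1 kb of it, and the nearest was 523392 bp away. Its Max peak held no E-Box.

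Other noncoding hosts were examined from a list of 16, of which 14 were annotated. In this list Bio-Myc was found at 9 promoters and Max at 8, the latter all bound in both lists, and 5 genes had neither. Snhg17 and Snhg15 scored above all 6 genes described here in both lists. Snhg17, annotated as 9430008C03Rik, had a Bio-Myc score of 1685, the second highest of all 3962 peaks, and a Max score of 1349. Snhg15, annotated as Gm11974, had scores of 802 and 1899. The other Bio-Myc scores were 465 for Snhg9, 332 for Zfas1, 276 for Snhg4, 246 for Epb4.1l4aos, 231 for Snhg16, 191 for Snhg20 and 168 for Dancr. Their Max scores were 271, none, 470, 351, 468, 335 and 427 in the same order. Snhg9 lies within the span of Rps2, a ribosomal protein gene that had the same scores in both lists. The 5 genes without a peak were Meg3, Mirg and Rian, which belong to the same imprinted cluster, Snhg11, and Snhg14, whose entry is a fragment of 109 bp (C230091D08Rik) and may not include its start. The annotation places no snoRNA gene inside Meg3, Mirg or this fragment. Among the 11 listed genes that do contain one, 9 had a Bio-Myc peak and 8 had both. This narrower count was not planned, and the genes it leaves out, Meg3, Mirg and Snhg14, all lacked a peak. Rmrp, a noncoding RNA gene that hosts no snoRNA, was not found in the annotation.

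At these other noncoding hosts the E-Box occurred under 6 of 9 Bio-Myc peaks and 7 of 8 Max peaks, beside 2 of 6 and 1 of 6 for the genes described here. The difference was not tested. Beyond these lists, 22 long noncoding genes of the annotation contained a snoRNA gene, of which 3 (13.6%) carried Bio-Myc, 6 (27.3%) Max and 3 both. Among all lincRNA and processed transcript genes the shares were 7.93%, 18.8% and 6.76%.

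**Figure D3:**
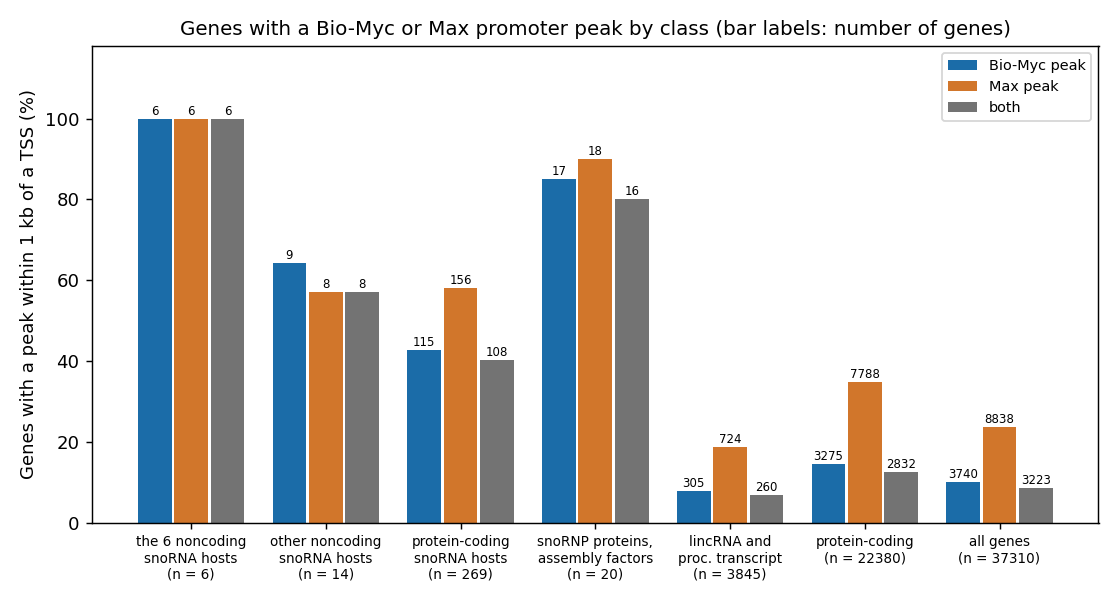
Percentage of genes with a Bio-Myc peak (blue), a Max peak (orange) or both (grey) within 1 kb of a TSS, by class, with the number of genes above each bar and the class size under it. All 6 annotated noncoding snoRNA hosts described here had both peaks. Of the other listed noncoding hosts 57.1% had both, of protein-coding snoRNA hosts 40.1% and of all genes 8.64%. Snhg8, which is not annotated and had a Max peak alone, is not included.

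Most snoRNAs lie in protein-coding genes. Of the 269 protein-coding genes that contained a snoRNA gene on their strand, 115 (42.8%) were bound by Bio-Myc and 156 (58.0%) by Max, beside 14.6% and 34.8% of all 22380 protein-coding genes. Both proteins were found at 108 (40.1%), beside 12.7%. The highest Bio-Myc scores among them were those of Ncl, the nucleolar protein nucleolin, with 1586, Ranbp1, a Ran regulator, with 1461, and Nop58, a core protein of C/D particles, with 1285. Their Max scores were 1916, 1194 and 764. An E-Box lay under 53.9% of the Bio-Myc and 41.7% of the Max peaks of the class, beside 49.7% and 36.7% of all promoter peaks. The score of Snhg1, 584, was less than the lowest of these 3 Bio-Myc scores, and the median of the class was 239, beside 196 for the 6 noncoding hosts. Zfas1, Snhg16 and Snhg11 have a protein-coding biotype in the annotation and so count here too. So does Rcc1, whose span takes in Snora73a and Snora73b and which has the same peaks as Snhg3. Without these 4 genes, 112 of 265 (42.3%) carried Bio-Myc and 154 (58.1%) Max. Rps2, which had the same scores as Snhg9, was not left out.

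The proteins that bind and assemble snoRNAs were the last group. Of 20 such genes, 17 were bound by Bio-Myc, 18 by Max and 16 by both. Among all protein-coding genes the shares were 14.6%, 34.8% and 12.7%. Nop56, Nop58 and Dkc1 contain snoRNA genes and so also count among the protein-coding hosts. Nop58 had the highest Bio-Myc score, and its partner Nop56, with 450 for Bio-Myc, had the highest Max score, 1209. Fbl, the methyltransferase of C/D particles, had scores of 328 and 380. Of the H/ACA proteins, Gar1 had scores of 519 and 542, Nhp2 of 372 and 424, Dkc1, the pseudouridine synthase, of 394 and 176, and Nop10 of 220 and 160. Tcof1 and Nolc1, nucleolar phosphoproteins, had Bio-Myc scores of 584 and 302 and Max scores of 468 and 577. The Bio-Myc scores of Naf1, Ruvbl2, Nufip1, Nhp2l1, Znhit6, Tgs1 and Ruvbl1, most of them assembly factors, were between 105 and 213, and their Max scores between 96.7 and 409. Pih1d1 had a Bio-Myc peak alone, with a score of 124. Shq1 and Znhit3 had a Max peak alone, with scores of 88.05 and 90.83, and Rpap3 had neither. An E-Box lay under 70.6% of the Bio-Myc and 61.1% of the Max peaks of these genes, beside 49.7% and 36.7% of all promoter peaks.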

How the data were processed

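Bio-Myc and Max ChIP-Seq libraries of mouse E14 ESCs were sequenced on the HiScanSQ platform. According to the study's methods and its processing notes, the authors (CASAVA 1.8) aligned reads to mm9 with Bowtie 0.12.7, kept those with a unique hit of at most 2 mismatches, removed duplicates and ran MACS 1.4.1 against the mock or IgG control. The deposited lists hold peak intervals and a score, the −log10 of the MACS p-value multiplied by 10. All p-values were at or below 1e-08 and no read counts are given, so depth and precision are unknown. Repeats without unique hits cannot hold peaks.

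Peaks were joined to GENCODE M1 genes (mm9) when they overlapped, by at least 1 bp, the 1 kb on either side of any TSS. The strongest such peak gave the score. Motifs were searched in mm9. Python 3.11.15, numpy 2.4.6 and pysam 0.24.0 were used, and the joins were tested on simulated data (11 of 11 steps correct). Groups followed the sample labels. With 1 library per ChIP no test was made. The control libraries were not analysed here. The members and lists were chosen with earlier results of these data known. Named genes were the members, genes starting on the opposite strand within 1 kb, listed snoRNA-related genes with a peak, the 3 protein-coding hosts with the highest Bio-Myc scores and the 3 genes most like Snhg1. Rcc1 and the genes without a peak were named after their values were seen. The alternatives were other promoter windows, stricter p-values, equal list lengths, overlap of the paired peaks, the central part of peaks, CACGCG and, for protein-coding hosts, leaving out the sex chromosomes and chromosome 8.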

Additional observations from a re-analysis of the deposited data

How the results depend on the processing

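The noncoding hosts kept their 6 Bio-Myc and 6 Max peaks under every promoter window tried and at a p-value of 1e-11. At 1e-15, 5 genes had a Bio-Myc peak and 5 had both, Gas5 being lost. With the Max list reduced to its 3962 highest scores, 3 genes kept a Max peak and 3 had both. Snhg1, Snhg3 and Snhg12 lost theirs, so the count of 6 rests on the longer Max list. The share of all genes with a Max peak was 10.6% in the reduced list, an alternative chosen after seeing the data. The count of genes with an E-Box fell from 2 to 1 in the central 500 bp of Bio-Myc peaks and to 1 in the central 200 bp. For Max it fell from 1 to 0 in the central 200 bp. With CACGCG also counted it was 6 in both lists. The share of all genes with a Bio-Myc peak was 8.62% where the peak had to cover a TSS, 9.51% within 500 bp, 12.1% within 5 kb, 10.9% from 3 kb upstream to 2 kb downstream, 9.38% at the outermost TSS, 7.08% at 1e-11 and 4.80% at 1e-15. For Max these shares were 19.8%, 22.6%, 28.0%, 25.5%, 22.1%, 19.7% and 15.5%. The counts of protein-coding hosts stayed within 1.5 times under all 16 alternatives, with 103 for Bio-Myc and 139 for Max where the sex chromosomes and chromosome 8 were left out. No paired analysis was possible because each ChIP was 1 library.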
